A study of Macaca mulatta with 4 samples.

Results

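The 45 genes described here carry out chromosome segregation and cell division: checkpoint and kinetochore proteins, mitotic kinases and cyclins, spindle motors and cytokinesis factors. They were taken by symbol from a list chosen with earlier results of these data known. All 45 were found, with 1 row each, among the 23697 genes of the table. RNA was sequenced from 3 rhesus monkey (Macaca mulatta) cultures that are compared here, with 1 library per group. They were diploid neural progenitor cells (NPCs), labelled with embryonic day 3.5, haploid embryonic stem cells (ESCs), labelled with day 2.5, and diploid ESCs, labelled with day 3.5. A haploid NPC sample of the same series was not analysed here. The series made haploid NPCs, whose cells have 1 chromosome set, for genetic screening. All samples are labelled as embryonic in tissue. The labels name no cell line, clone or treatment, so the number of cultures behind a library is not known. Haploid stem cell cultures are known to become diploid in part as they grow, and no source used here gives the share of haploid cells in this library. Ploidy and labelled embryonic day differ together and cannot be told apart.

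In mitosis the kinetochore, a protein assembly built on centromeric chromatin, attaches each chromosome to spindle microtubules. The spindle checkpoint holds back the anaphase promoting complex until every kinetochore is attached; separase then cuts the cohesin that holds sister chromatids together, and cytokinesis splits the cell. Most of these genes are transcribed late in the cell cycle, so their level in a culture follows in part how many of its cells are dividing, and both embryonic stem cells and neural progenitors divide.

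Levels are in FPKM (fragments per kilobase, scaled to the size of a library), a unit corrected for gene length, so they can be set side by side between genes. Log2 ratios between libraries are of FPKM plus 1. A gene is counted as higher or lower where the ratio reached 2-fold, which is 1 on the log2 scale, among the 14474 genes whose mean over the 3 libraries reached 1 FPKM. All 45 genes passed that filter, with means from 6.28 FPKM for CENPI to 224 FPKM for PTTG1. None of these differences has a replicate check, and no test between groups was possible with 1 library each. FPKM from whole cultures shows neither RNA per cell nor the share of cells that make it: fewer dividing cells and less RNA per dividing cell cannot be told apart. From the steps between the lowest values, sequencing depth was estimated at 78.6% for NPCs and 95.2% for haploid ESCs, relative to diploid ESCs; no source used here gives read totals.

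The labelled cell types were checked against markers of these and of other cell types. Endoderm markers summed to 12.8 FPKM in NPCs, 46.8 FPKM in haploid ESCs and 851 FPKM in diploid ESCs, the baseline of 2 comparisons below. Fibroblast markers summed to 108 FPKM in NPCs, 571 FPKM in haploid ESCs and 453 FPKM in diploid ESCs, most of it COL1A1, COL1A2, COL3A1 and THY1. The rest of that list was low. DCN and LUM stood at 1.13 and 2.17 FPKM in NPCs, 1.6 and 0.26 FPKM in haploid ESCs, and 0.87 and 0.98 FPKM in diploid ESCs. PDGFRA reached 3.94 FPKM at most, in diploid ESCs. The 6 stem cell markers summed to 4.03 FPKM in NPCs, 2078 FPKM in haploid ESCs and 2709 FPKM in diploid ESCs. The progenitor markers SOX1 and FABP7 stood at 18.2 and 403 FPKM in NPCs, against 0.14 and 6 FPKM in haploid ESCs and 0.09 and 0.86 FPKM in diploid ESCs, and 4 of 6 progenitor markers reached 2-fold on the high side in NPCs over diploid ESCs. PAX6 was among the 4 but at only 3.68 FPKM in NPCs. Of the 14474 genes that passed the filter, 22.7% reached 2-fold on the high side in that comparison. NES was near level, at 279.7 FPKM in NPCs, 266 FPKM in haploid ESCs and 253 FPKM in diploid ESCs, and SOX2, which stem cells also express, stood at 109 FPKM in NPCs, 161 FPKM in haploid ESCs and 149 FPKM in diploid ESCs.

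Mitosis genes were well expressed in all 3 cultures. Their median level was 29.1 FPKM in NPCs, 44.7 FPKM in haploid ESCs and 29.6 FPKM in diploid ESCs, against medians over all genes tested of 9.18, 9.52 and 8.93 FPKM in NPCs, haploid ESCs and diploid ESCs. MKI67, the Ki-67 antigen used as a marker of dividing cells, stood at 39.2 FPKM in NPCs, 54.2 FPKM in haploid ESCs and 36.9 FPKM in diploid ESCs. CDK1, the kinase that starts mitosis, stood at 34.2 FPKM in NPCs, 49.2 FPKM in haploid ESCs and 37.7 FPKM in diploid ESCs. Haploid ESCs were highest for both genes, and NPCs and diploid ESCs lay close together. Over the 45 genes, 12 were highest in NPCs, 30 in haploid ESCs and 3 in diploid ESCs. Of all genes tested, 42.6% were highest in NPCs, 35.7% in haploid ESCs and 21.6% in diploid ESCs. These ranks use FPKM as deposited and were not repeated with other scaling. The FPKM of all genes tested summed to 597197 in NPCs, 490466 in haploid ESCs and 566492 in diploid ESCs, so narrow ranks depend on scaling.

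**Figure D1:**
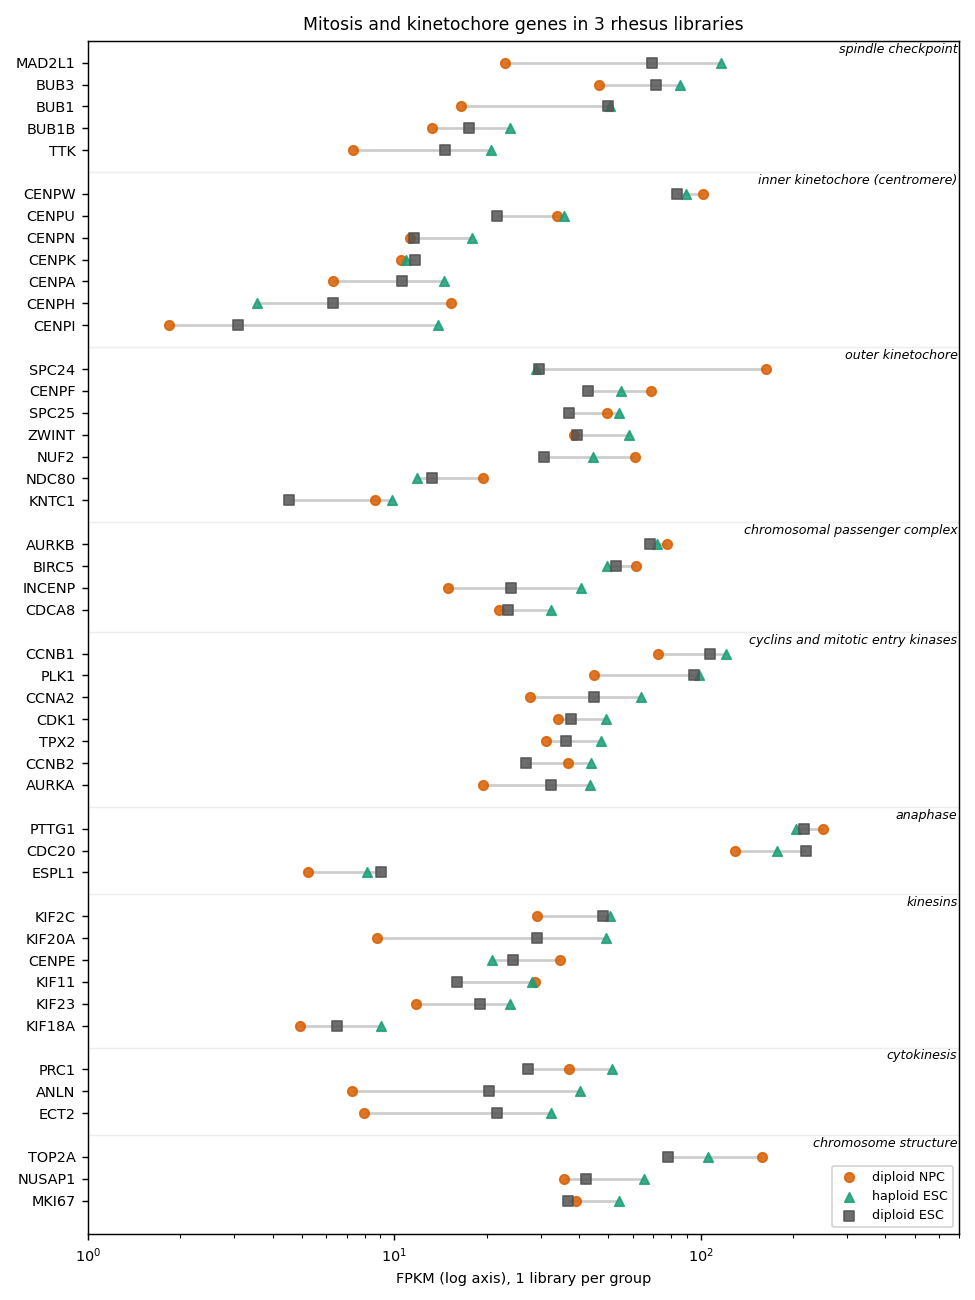
FPKM of each of the 45 genes (log axis) in the diploid NPC, haploid ESC and diploid ESC libraries, grouped by role, with a grey line from the lowest to the highest library. All 5 checkpoint genes are lowest in NPCs, and SPC24 stands at 164 FPKM in NPCs, against 29.0 FPKM in haploid ESCs and 29.6 FPKM in diploid ESCs.

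Diploid NPCs were first set against diploid ESCs, which have the same ploidy and labelled embryonic day. The mitosis genes did not shift as a block. Checkpoint and cytokinesis genes were mostly lower in NPCs, and outer kinetochore genes mostly higher. Of the 45 genes, 18 were higher and 27 lower in NPCs by any amount, where 50.2% of all genes tested were higher and 49.6% lower. A 2-fold difference was reached on the low side by 6 (MAD2L1, BUB1, PLK1, KIF20A, ANLN and ECT2) and on the high side by 3 (CENPH, SPC24 and TOP2A), which is 13.3% and 6.67% of them. Among all genes tested 19.6% reached it on the low side and 22.7% on the high side. The median log2 ratio was -0.14 for the 45 genes and 0.01 for all genes tested, and the SD of the ratios across genes was 0.82 for the 45 and 1.43 for all. The set of all genes includes genes with lower means than any of the 45, and the SD was not computed without them.

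**Figure D2:**
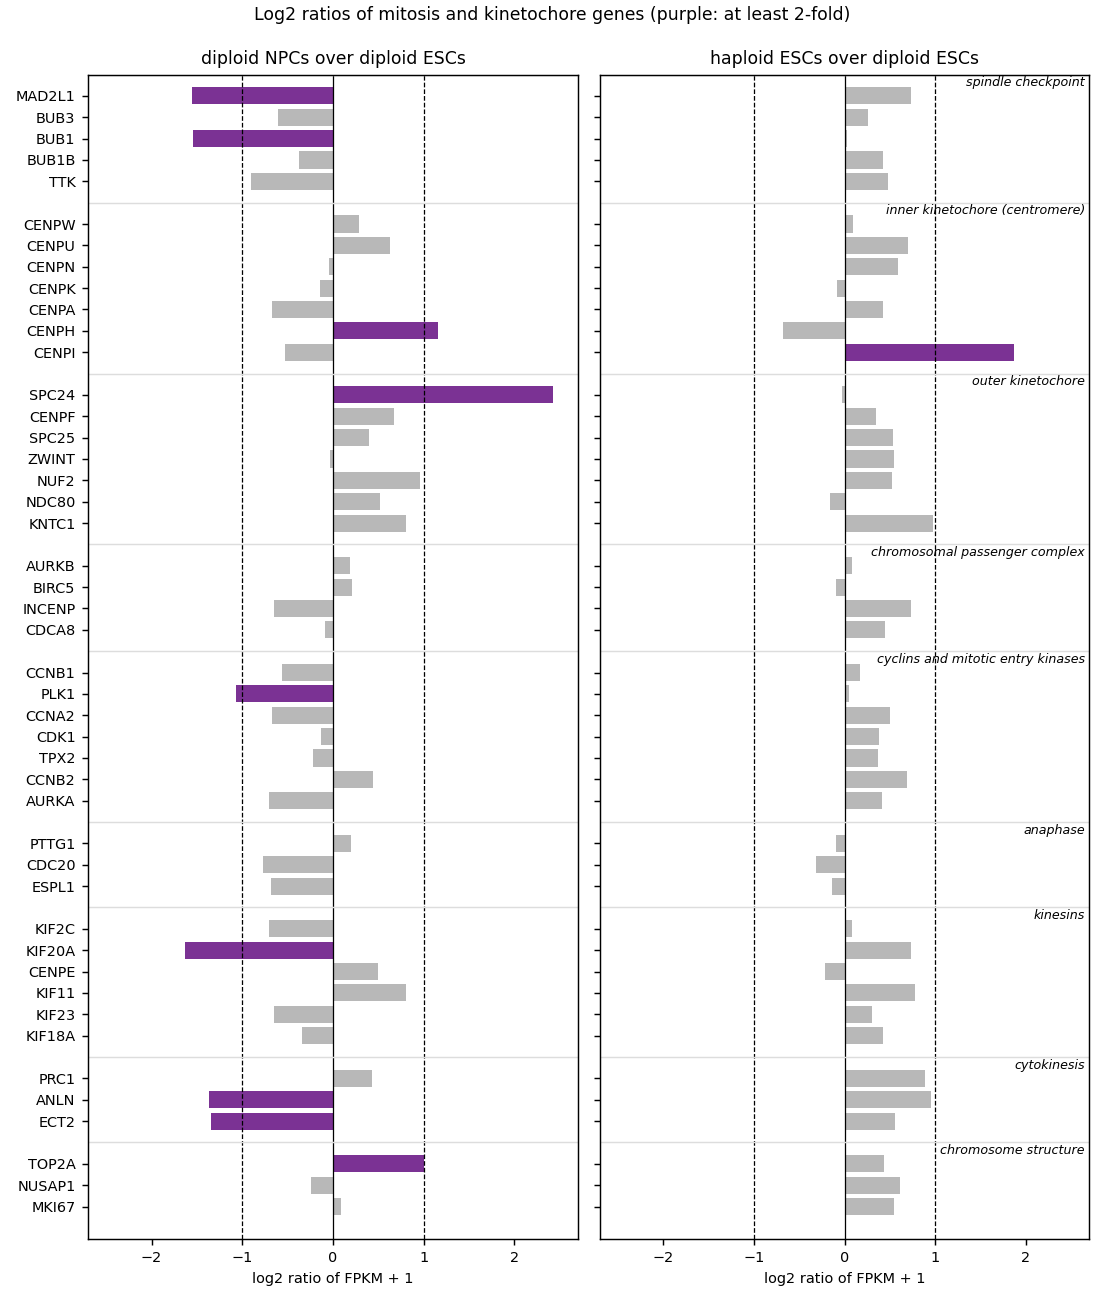
Log2 ratio of FPKM + 1 for each of the 45 genes, for diploid NPCs over diploid ESCs (left) and haploid ESCs over diploid ESCs (right). Dashed lines mark 2-fold and purple bars reach it: 9 genes do on the left, 6 of them lower and 3 higher in NPCs, and CENPI alone does on the right.

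The spindle checkpoint genes, 5 of 5, stood lower in NPCs than in diploid ESCs, with a median log2 ratio of -0.91, and 2 of them passed 2-fold. Of all genes tested 19.6% did so on the low side. MAD2L1, which binds and inhibits the anaphase activator CDC20 and had the highest mean of the group, stood at 22.9 FPKM in NPCs, 117 FPKM in haploid ESCs and 69.5 FPKM in diploid ESCs, a log2 ratio of -1.56. BUB1, a checkpoint kinase at the kinetochore, stood at 16.5 FPKM in NPCs, 50.8 FPKM in haploid ESCs and 49.9 FPKM in diploid ESCs, a log2 ratio of -1.54. In both genes NPCs were well below the 2 stem cell libraries. TTK, the kinase that starts checkpoint signalling, stood at 7.35 FPKM in NPCs, 20.7 FPKM in haploid ESCs and 14.6 FPKM in diploid ESCs; its log2 ratio of -0.91 fell short of 2-fold. BUB3, the adaptor of both BUB proteins, stood at 46.4, 85.4 and 71.4 FPKM in NPCs, haploid ESCs and diploid ESCs. BUB1B, also called BUBR1, had the smallest difference of the group, at 13.2 FPKM in NPCs, 23.8 FPKM in haploid ESCs and 17.5 FPKM in diploid ESCs, a log2 ratio of -0.38. The balance of the pair differed: the ratio of BUB1 to BUB1B was 1.25 in NPCs, 2.13 in haploid ESCs and 2.85 in diploid ESCs.

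Inner kinetochore genes, which make the platform on centromeric chromatin, went both ways, with a median log2 ratio of -0.04 and 3 of 7 higher in NPCs. CENPA, the histone H3 variant that marks centromeres, stood at 6.28 FPKM in NPCs, 14.5 FPKM in haploid ESCs and 10.6 FPKM in diploid ESCs, a log2 ratio of -0.67 for NPCs over diploid ESCs. CENPW, which forms a histone-like pair with CENPT, was the highest of the group, at 102 FPKM in NPCs, 89.4 FPKM in haploid ESCs and 83.6 FPKM in diploid ESCs. In FPKM as deposited CENPA was lowest in NPCs, and CENPW highest there, by a log2 ratio of only 0.19 over haploid ESCs. CENPH and CENPI, subunits of the same inner complex, ran in opposite directions. CENPH stood at 15.3 FPKM in NPCs, 3.57 FPKM in haploid ESCs and 6.29 FPKM in diploid ESCs, a log2 ratio of 1.16 for NPCs over diploid ESCs. CENPI stood at 1.83 FPKM in NPCs, 13.9 FPKM in haploid ESCs and 3.08 FPKM in diploid ESCs, a log2 ratio of -0.53. Their partner CENPK was nearly level, at 10.5 FPKM in NPCs, 10.9 FPKM in haploid ESCs and 11.7 FPKM in diploid ESCs. CENPU, a further inner subunit, stood at 34 FPKM in NPCs, 35.8 FPKM in haploid ESCs and 21.7 FPKM in diploid ESCs, so that the diploid ESC library was lowest. CENPN, which binds CENPA nucleosomes, stood at 11.2 FPKM in NPCs, 17.9 FPKM in haploid ESCs and 11.6 FPKM in diploid ESCs, level between the diploid libraries.

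Outer kinetochore genes, which reach the microtubules, had a median log2 ratio of 0.67, and 6 of 7 were higher in NPCs than in diploid ESCs. The 4 subunits of the Ndc80 complex, the main microtubule attachment of the kinetochore, were all higher. SPC24, which with SPC25 anchors that complex to the chromosome side, stood at 164 FPKM in NPCs, 29.0 FPKM in haploid ESCs and 29.6 FPKM in diploid ESCs. Its log2 ratio of 2.43 was the highest of the 45 genes, and its FPKM were 5.53-fold higher in NPCs than in diploid ESCs. The other subunits differed less. SPC25 stood at 49.3 FPKM in NPCs, 54.2 FPKM in haploid ESCs and 37.1 FPKM in diploid ESCs. The microtubule binding subunits NUF2 and NDC80 stood at 60.9 and 19.4 FPKM in NPCs, 44.7 and 11.8 FPKM in haploid ESCs, and 30.8 and 13.3 FPKM in diploid ESCs. NUF2, with a log2 ratio of 0.96, lay just short of 2-fold. SPC24 therefore stood at 3.32 times SPC25 in NPCs, 0.535 times in haploid ESCs and 0.797 times in diploid ESCs. CENPF, a large protein of the outer kinetochore, stood at 69.0 FPKM in NPCs, 55.1 FPKM in haploid ESCs and 43.0 FPKM in diploid ESCs. KNTC1, part of the complex that brings dynein to kinetochores, stood at 8.62, 9.82 and 4.51 FPKM in NPCs, haploid ESCs and diploid ESCs. ZWINT, a kinetochore adaptor, stood at 38.7 FPKM in NPCs, 58.3 FPKM in haploid ESCs and 39.5 FPKM in diploid ESCs, level between the diploid libraries.

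The chromosomal passenger complex, which corrects wrong attachments and later guides cytokinesis, stayed within 2-fold for all 4 subunits, where 42.4% of all genes tested reached it. Its median log2 ratio of 0.05 became -0.03 with TPM and -0.10 with TMM scaling (trimmed mean factors). Its kinase AURKB stood at 77.6 FPKM in NPCs, 72.2 FPKM in haploid ESCs and 68.1 FPKM in diploid ESCs. Survivin, encoded by BIRC5, stood at 61.5 FPKM in NPCs, 49.5 FPKM in haploid ESCs and 52.9 FPKM in diploid ESCs. The scaffold INCENP was the exception on the low side, at 15 FPKM in NPCs, 40.7 FPKM in haploid ESCs and 24.1 FPKM in diploid ESCs. In FPKM as deposited AURKB was highest in NPCs, by a log2 ratio of only 0.10 over haploid ESCs, and INCENP was lowest there. The ratio of AURKB to INCENP was 5.17 in NPCs, 1.78 in haploid ESCs and 2.83 in diploid ESCs. Borealin, encoded by CDCA8, stood at 22.0 FPKM in NPCs, 32.4 FPKM in haploid ESCs and 23.5 FPKM in diploid ESCs.

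Of the 7 cyclins and kinases of mitotic entry, 6 stood below diploid ESCs in NPCs, with a median log2 ratio of -0.56. PLK1 alone passed 2-fold, where 19.6% of all genes tested did on the low side. PLK1, the polo kinase of mitotic entry and spindle assembly, stood at 44.9 FPKM in NPCs, 98.5 FPKM in haploid ESCs and 95.01 FPKM in diploid ESCs, a log2 ratio of -1.07. CCNB1, the main cyclin partner of CDK1, stood at 72.6 FPKM in NPCs, 121 FPKM in haploid ESCs and 107 FPKM in diploid ESCs. CCNB2, the other B cyclin measured among the 45, was the only gene of the group higher in NPCs than in diploid ESCs, at 36.9 FPKM in NPCs, 44.0 FPKM in haploid ESCs and 26.9 FPKM in diploid ESCs. CCNB1 exceeded CCNB2 in every library, by 1.97 times in NPCs, 2.75 times in haploid ESCs and 3.99 times in diploid ESCs. The centrosomal kinase AURKA stood at 19.5 FPKM in NPCs, 43.4 FPKM in haploid ESCs and 32.4 FPKM in diploid ESCs. TPX2, which activates AURKA, stood at 31.2 FPKM in NPCs, 47.3 FPKM in haploid ESCs and 36.5 FPKM in diploid ESCs. Cyclin A2, encoded by CCNA2, stood at 27.6 FPKM in NPCs, 63.6 FPKM in haploid ESCs and 44.7 FPKM in diploid ESCs, and like the other 2 it was highest in haploid ESCs and lowest in NPCs.

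At anaphase, CDC20 and ESPL1 stood below diploid ESCs in NPCs by less than 2-fold, and PTTG1 slightly above. CDC20 and PTTG1 had the highest FPKM of the 45 genes in both ESC libraries. CDC20, the activator of the anaphase promoting complex, stood at 129 FPKM in NPCs, 178 FPKM in haploid ESCs and 221 FPKM in diploid ESCs. Securin, encoded by PTTG1, stood at 250.3 FPKM in NPCs, 205 FPKM in haploid ESCs and 218 FPKM in diploid ESCs. Securin inhibits separase, encoded by ESPL1, which stood at 5.23 FPKM in NPCs, 8.11 FPKM in haploid ESCs and 9.03 FPKM in diploid ESCs. The ratio of PTTG1 to ESPL1 was 47.9 in NPCs, against 25.3 in haploid ESCs and 24.2 in diploid ESCs.

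Spindle and midzone kinesins had a median log2 ratio of -0.49, with 4 of 6 lower in NPCs. KIF20A, which carries the passenger complex to the spindle midzone, had the lowest ratio of the 45 genes, at 8.75 FPKM in NPCs, 49.1 FPKM in haploid ESCs and 29.2 FPKM in diploid ESCs, a log2 ratio of -1.63. KIF23, the motor of the centralspindlin complex, stood at 11.8 FPKM in NPCs, 23.8 FPKM in haploid ESCs and 19.1 FPKM in diploid ESCs, and KIF2C, a microtubule depolymerase and the highest of the group by mean, at 29.1, 50.7 and 47.9 FPKM in NPCs, haploid ESCs and diploid ESCs. These 3 motors were lowest in NPCs. KIF11, which pushes the spindle poles apart, went the other way, at 28.7 FPKM in NPCs, 28.2 FPKM in haploid ESCs and 16.0 FPKM in diploid ESCs. So did CENPE, a kinetochore motor, at 34.7 FPKM in NPCs, 20.9 FPKM in haploid ESCs and 24.3 FPKM in diploid ESCs. KIF18A, which dampens chromosome movement, was low throughout, at 4.92 FPKM in NPCs, 9.02 FPKM in haploid ESCs and 6.48 FPKM in diploid ESCs.

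Among the cytokinesis factors, 2 of 3 were at least 2-fold lower in NPCs than in diploid ESCs, where 19.6% of all genes tested were. ANLN, which encodes the contractile ring scaffold anillin, stood at 7.26 FPKM in NPCs, 40.4 FPKM in haploid ESCs and 20.3 FPKM in diploid ESCs, a log2 ratio of -1.37 for NPCs over diploid ESCs. ECT2, which activates RHOA at the division plane, stood at 7.95 FPKM in NPCs, 32.4 FPKM in haploid ESCs and 21.7 FPKM in diploid ESCs, a log2 ratio of -1.34. PRC1, the microtubule bundler of the midzone, differed from both, at 37.1 FPKM in NPCs, 51.5 FPKM in haploid ESCs and 27.4 FPKM in diploid ESCs. The ratio of PRC1 to ANLN was 5.12 in NPCs, 1.27 in haploid ESCs and 1.35 in diploid ESCs.

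Of the chromosome structure genes, TOP2A, the topoisomerase that untangles sister chromatids, stood at 159 FPKM in NPCs, 106 FPKM in haploid ESCs and 78.5 FPKM in diploid ESCs. Its log2 ratio of 1.01 lay at the 2-fold threshold, with 0.93 under TPM and 0.85 under TMM scaling. NUSAP1, which binds microtubules near chromatin, stood at 35.8 FPKM in NPCs, 65.3 FPKM in haploid ESCs and 42.4 FPKM in diploid ESCs. TOP2A and MKI67 are both used as marks of dividing cells, and the ratio of TOP2A to MKI67 was 4.05 in NPCs, 1.96 in haploid ESCs and 2.13 in diploid ESCs.

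**Figure D3:**
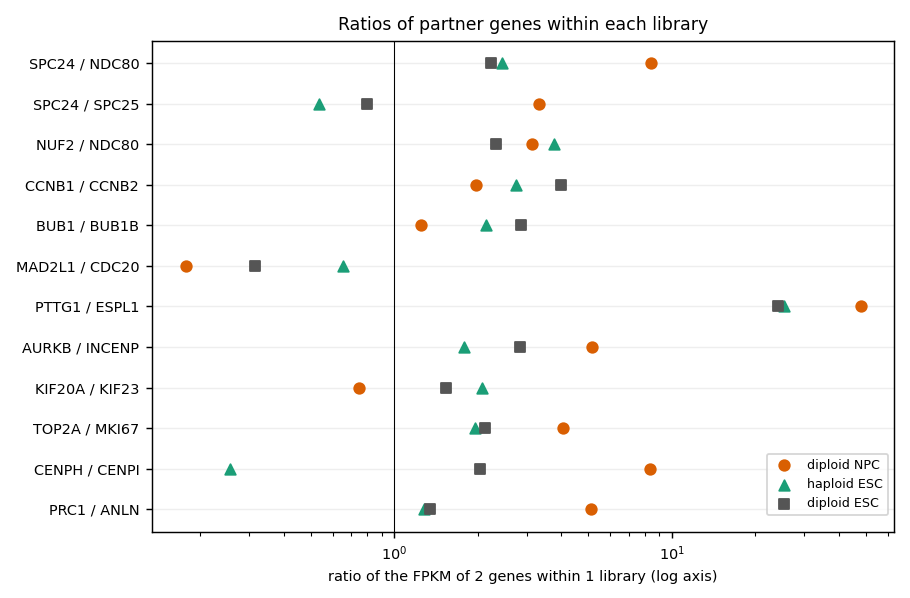
Ratio of the FPKM of 2 genes within 1 library (log axis) for 12 pairs of mitosis genes, in the diploid NPC, haploid ESC and diploid ESC libraries. Such ratios do not depend on how libraries are scaled; SPC24 over NDC80 was 8.43 in NPCs, against 2.45 in haploid ESCs and 2.22 in diploid ESCs.

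The pairs in the plot of partner genes were chosen after their values were seen. Other values moved with the NPC comparison. Of 8 neuron markers, 7 passed the filter. Of these, 5 were at least 2-fold higher and 1 lower in NPCs than in diploid ESCs, where 22.7% and 19.6% of all genes tested were. The 7 summed to 308 FPKM in NPCs, 27.2 FPKM in haploid ESCs and 43.5 FPKM in diploid ESCs, most of it TUBB3, and no neuron marker that passed the filter was listed at 0 in a library. Neurons do not divide. CDK inhibitors, which stop the cell cycle, summed over 7 genes to 119 FPKM in NPCs, 28.7 FPKM in haploid ESCs and 45.2 FPKM in diploid ESCs. Endoderm markers, 6 of 6, reached 2-fold on the low side in NPCs over diploid ESCs, with sums of 12.8 FPKM in NPCs and 851 FPKM in diploid ESCs, and SOX17 is listed at 0 in NPCs. Of 7 fibroblast markers 3 reached it on the low side and none on the high side, with sums of 108 FPKM in NPCs and 453 FPKM in diploid ESCs. By gene span, the medians of all genes in NPCs over diploid ESCs were 0.21 for genes shorter than the lower quartile of the 45, -0.06 between its quartiles and -0.20 above the upper quartile, and those of the mitosis genes were -0.61, -0.04 and -0.24 in the same classes. The part of other cell types, non-dividing cells and gene length in these differences was not tested.

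Haploid ESCs were next set against diploid ESCs, stem cells that differ both in labelled ploidy and in labelled embryonic day. Mitosis genes were mostly a little higher in the haploid library: 36 of 45 were higher and 9 lower, where 51.3% of all genes tested were higher and 48.2% lower. The median log2 ratio was 0.42 for the 45 genes and 0.02 for all genes tested, and the quartiles of the 45 were 0.08 and 0.59. CENPI alone reached 2-fold on the high side and none on the low side, against 7.20% and 9.19% of all genes. Scaling every library to the same sum of FPKM (TPM) shifted the median of all genes in this comparison to 0.21 and that of the 45 genes to 0.63, and CENPK, NDC80, SPC24, BIRC5, ESPL1 and PTTG1, lower in haploid ESCs as deposited, then had ratios above 0.

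**Figure D4:**
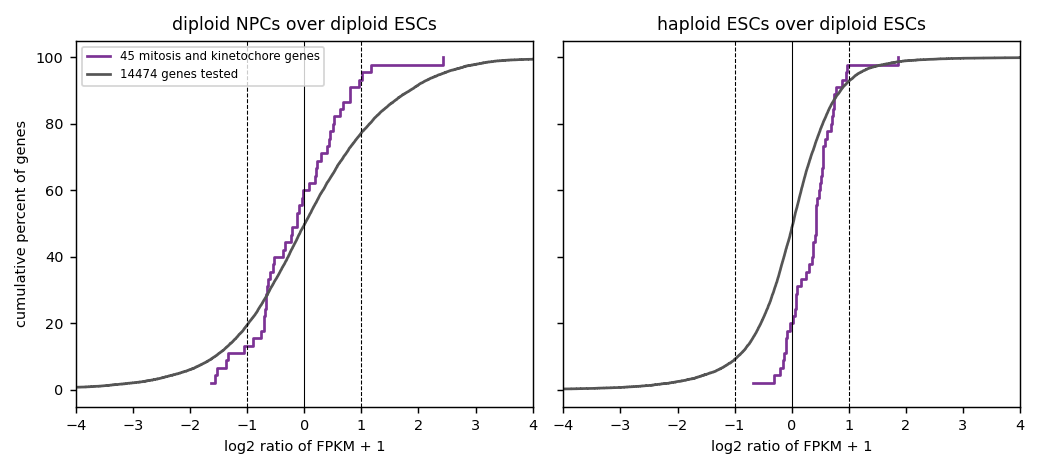
Cumulative percent of genes by log2 ratio of FPKM + 1, for the 45 mitosis genes and all 14474 genes tested, in diploid NPCs over diploid ESCs (left) and haploid ESCs over diploid ESCs (right), with dashed lines at 2-fold. The medians of the 45 and of all genes are -0.14 and 0.01 on the left and 0.42 and 0.02 on the right.

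By role, cytokinesis genes had the highest median in haploid over diploid ESCs, at 0.89, and anaphase genes the lowest, at -0.14, each over 3 genes. ANLN, PRC1 and ECT2 were 1.99, 1.88 and 1.49-fold higher in haploid ESCs by FPKM. All 5 checkpoint genes were higher, with a median of 0.42; MAD2L1 had the highest log2 ratio of these, at 0.74, and BUB1 the lowest, at 0.03. All 7 cyclins and entry kinases were higher as well, with a median of 0.38, from 0.05 for PLK1 to 0.69 for CCNB2. The chromosome structure genes MKI67, TOP2A and NUSAP1 had log2 ratios of 0.54, 0.43 and 0.61. CDC20, ESPL1 and PTTG1, by contrast, were all lower in haploid ESCs, with log2 ratios of -0.31, -0.14 and -0.09, though with TPM scaling only CDC20 stayed below 0. The group medians were 0.42 for the inner kinetochore, 0.52 for the outer kinetochore, 0.26 for the passenger complex and 0.36 for kinesins. KIF11 had the highest ratio among the kinesins, at 0.78, and CENPE the lowest, at -0.21, while INCENP had the highest of the passenger complex, at 0.73, and BIRC5 the lowest, at -0.09.

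The inner kinetochore held the widest spread. CENPI, which stood at 13.9 FPKM in haploid ESCs and 3.08 FPKM in diploid ESCs, was 4.52-fold higher by FPKM, a log2 ratio of 1.87. CENPH, the lowest ratio of the 45, stood at 3.57 FPKM in haploid ESCs and 6.29 FPKM in diploid ESCs, a log2 ratio of -0.67. The ratio of CENPH to CENPI was 8.35 in NPCs, 0.256 in haploid ESCs and 2.04 in diploid ESCs. CENPI is the only one of the 45 on the X chromosome by the T2T-MMU8v2.0 gene table, and X-linked genes as a whole were higher in haploid ESCs: their median log2 ratio was 0.60 over 529 genes, against 0.03 over 12779 autosomal genes. The part of X linkage in the CENPI ratio was not tested. In the outer kinetochore KNTC1 was the nearest to the threshold, at 9.82 FPKM in haploid ESCs and 4.51 FPKM in diploid ESCs. That is 2.18-fold by FPKM, but 0.97 on the log2 scale of FPKM plus 1. SPC24 and NDC80 were near level, with log2 ratios of -0.03 and -0.16 that turned positive with TPM scaling, and NUF2 and SPC25 higher, with 0.52 and 0.54.

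Gene length moved with this comparison too. Among all genes tested, those with spans shorter than the lower quartile of the 45 had a median log2 ratio of -0.21, those between its quartiles 0.04 and those longer than the upper quartile 0.28. The mitosis genes in the same 3 length classes had medians of 0.26, 0.38 and 0.56 in haploid over diploid ESCs. Endoderm markers differed between the stem cell libraries: 6 of 6 reached 2-fold on the low side in haploid ESCs, and they summed to 46.8 FPKM there, against 851 FPKM in diploid ESCs, CER1 making up most of it. None of them was listed at 0 in either ESC library. Fibroblast markers summed over 7 genes to 571 FPKM in haploid ESCs and 453 FPKM in diploid ESCs, with 2 of 7 at least 2-fold higher and none lower. Of all genes tested 7.20% were at least 2-fold higher and 9.19% lower. The part of gene length and of these cell types in the mitosis gene ratios was not tested.

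Diploid NPCs were also set against haploid ESCs. This comparison shares a library with each of the others, and cell type, ploidy and labelled day differ together in it. Of the 45 genes 12 (26.7%) reached 2-fold on the low side in NPCs and 2 (4.44%) on the high side. Among all genes tested 23.9% and 26.0% did, so the share on the low side was near that of all genes. The median log2 ratio of the 45 was -0.55. The lowest were CENPI, KIF20A, ANLN and MAD2L1, with log2 ratios of -2.40, -2.36, -2.33 and -2.30. ECT2, BUB1, INCENP, TTK, CCNA2, PLK1, AURKA and CENPA made up the rest, between -1.90 and -1.09. SPC24 and CENPH were the higher genes, with 2.46 and 1.83. The outer kinetochore had a median of 0.32 and the checkpoint group -1.38.

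Other genes of the same processes were taken from 9 lists of 128 genes, all of which passed the filter. In NPCs over diploid ESCs 21 of them were at least 2-fold higher and 11 lower, both smaller shares than the 22.7% and 19.6% of all genes tested, with a median log2 ratio of 0.16 against 0.01 for all genes. Between the ESC libraries, 5 were higher and 4 lower in haploid ESCs, also smaller shares than the 7.20% and 9.19% of all genes, with a median of 0.21 against 0.02. Of 24 further kinetochore genes, 4 reached 2-fold on the high side and 1 on the low side in NPCs, against 22.7% and 19.6% of all genes, with a median of 0.42. CENPM, another inner subunit, stood at 130.5 FPKM in NPCs, 40.7 FPKM in haploid ESCs and 43.7 FPKM in diploid ESCs, and ZWILCH, a partner of KNTC1, at 10.2, 20.1 and 22.9 FPKM in NPCs, haploid ESCs and diploid ESCs. In haploid over diploid ESCs that list ran from CENPX, at -1.06, to SKA2, at 0.85.

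The remaining checkpoint genes had a median of -0.49 in NPCs over diploid ESCs. TRIP13, which remodels MAD2, stood at 15.2 FPKM in NPCs, 47.0 FPKM in haploid ESCs and 44.7 FPKM in diploid ESCs. MAD1L1, the kinetochore receptor of MAD2, went against this, at 29.9 FPKM in NPCs, 10.1 FPKM in haploid ESCs and 12.5 FPKM in diploid ESCs. TRIP13 was at least 2-fold lower and MAD1L1 at least 2-fold higher in NPCs than in diploid ESCs, where 19.6% and 22.7% of all genes were. None of the 5 reached 2-fold between the ESC libraries, where 7.20% of all genes did on the high side and 9.19% on the low side. CHAMP1 had the highest ratio of the 5 in haploid over diploid ESCs, at 0.83.

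Further kinesins and spindle genes had medians of 0.19 in NPCs and 0.44 in haploid ESCs, each over diploid ESCs. KIF18B stood at 36.1 FPKM in NPCs, 11.1 FPKM in haploid ESCs and 10.2 FPKM in diploid ESCs, and the spindle organiser DLGAP5 had the lowest NPC ratio, at -0.44. ASPM, a spindle pole gene whose loss causes microcephaly, stood at 4.39 FPKM in NPCs, 13.0 FPKM in haploid ESCs and 3.38 FPKM in diploid ESCs. ASPM and KIF4A were the 2 of 16 at least 2-fold higher in haploid than in diploid ESCs, against 7.20% of all genes. HMMR had the lowest ratio of that comparison, at -0.53. Of 7 further cytokinesis genes, MYH9, a non-muscle myosin, was the only one at least 2-fold lower in NPCs than in diploid ESCs, against 19.6% of all genes. MYH9 stood at 19.5 FPKM in NPCs, 151 FPKM in haploid ESCs and 80.7 FPKM in diploid ESCs. It was also the highest of its list in haploid over diploid ESCs, at 0.90, and CEP55 had the highest NPC ratio, at 0.28, and the lowest haploid ratio, also at -0.28.

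Subunits and partners of the anaphase promoting complex, the ubiquitin ligase that the checkpoint restrains, were set beside all genes in NPCs over diploid ESCs. Of the 18, 1 was at least 2-fold higher and 3 lower, where 22.7% and 19.6% of all genes were. ANAPC11, its RING subunit, stood at 229 FPKM in NPCs, 87.9 FPKM in haploid ESCs and 102 FPKM in diploid ESCs. ANAPC1, its largest scaffold subunit, stood at 7.23 FPKM in NPCs, 27.3 FPKM in haploid ESCs and 27.7 FPKM in diploid ESCs. In haploid over diploid ESCs none of the 18 reached 2-fold, where 7.20% of all genes did on the high side and 9.19% on the low side. Their ratios ran from ANAPC4 at -0.95 to CDC27 at 0.88. Of 20 cohesin and condensin genes, 3 reached 2-fold on the high side and 1 on the low side in NPCs over diploid ESCs, again against 22.7% and 19.6% of all genes. SGO1, which protects centromeric cohesin, stood at 35.6 FPKM in NPCs, 8.35 FPKM in haploid ESCs and 12.1 FPKM in diploid ESCs, and WAPL, which releases cohesin, at 7.53, 24.8 and 17.5 FPKM in NPCs, haploid ESCs and diploid ESCs. SGO1 was also the lowest of that list in haploid over diploid ESCs, at -0.49. In haploid over diploid ESCs 3 of the 20 counted as at least 2-fold higher and none as lower, against 7.20% and 9.19% of all genes. One of them, NCAPH, is listed at 0 in NPCs and diploid ESCs and at 13.2 FPKM in haploid ESCs, and is also among the 5 of the 128 genes counted above. NCAPG, another condensin gene, stood at 47.5 FPKM in NPCs, 48.8 FPKM in haploid ESCs and 39.9 FPKM in diploid ESCs. Whether the values of 0 for NCAPH come from annotation or read counting was not tested. The other 2 were SMC1A and NCAPD3.

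Regulators of the G2 to mitosis transition went both ways in NPCs over diploid ESCs, with 5 of 16 at least 2-fold higher and 2 lower, where 22.7% and 19.6% of all genes were. LIN52, a subunit of the MuvB complex that controls mitotic gene transcription, stood at 44.2 FPKM in NPCs, 5.74 FPKM in haploid ESCs and 8.01 FPKM in diploid ESCs. WEE1, the kinase that holds CDK1 inactive, stood at 16.9 FPKM in NPCs, 52.9 FPKM in haploid ESCs and 84.5 FPKM in diploid ESCs. In haploid over diploid ESCs the list ran from LIN37, at -1.14, to CDC25B and CDC25A, both at 0.90. FOXM1, the main activator of mitotic genes, was within 2-fold, at 55.5 FPKM in NPCs, 49.0 FPKM in haploid ESCs and 43.2 FPKM in diploid ESCs.

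DNA replication genes, which act before mitosis, had medians of -0.19 in NPCs and 0.16 in haploid ESCs, each over diploid ESCs. MCM2, of the replicative helicase, stood at 26.5 FPKM in NPCs, 88.5 FPKM in haploid ESCs and 78.6 FPKM in diploid ESCs. The S phase cyclins split: CCNE1 stood at 21.2, 26.6 and 47.0 FPKM in NPCs, haploid ESCs and diploid ESCs, while CCNE2 stood at 4.62, 2.54 and 0.93 FPKM in the same libraries. Among 7 CDK inhibitors, 4 reached 2-fold on the high side in NPCs over diploid ESCs and none on the low side. Of all genes 22.7% and 19.6% did. The median log2 ratio of the 7 was 1.49. CDKN2A stood at 12.8 FPKM in NPCs and 0.12 FPKM in both ESC libraries. CDKN1A, a target of p53, stood at 36.6 FPKM in NPCs, 2.26 FPKM in haploid ESCs and 6.18 FPKM in diploid ESCs, and CDKN1B had the lowest NPC ratio, at -0.17. In haploid over diploid ESCs CDKN1A and CDKN2D were at least 2-fold lower, with log2 ratios of -1.14 and -1.05, where 9.19% of all genes were. CDKN2C had the highest ratio, at 0.17.

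**Figure D5:**
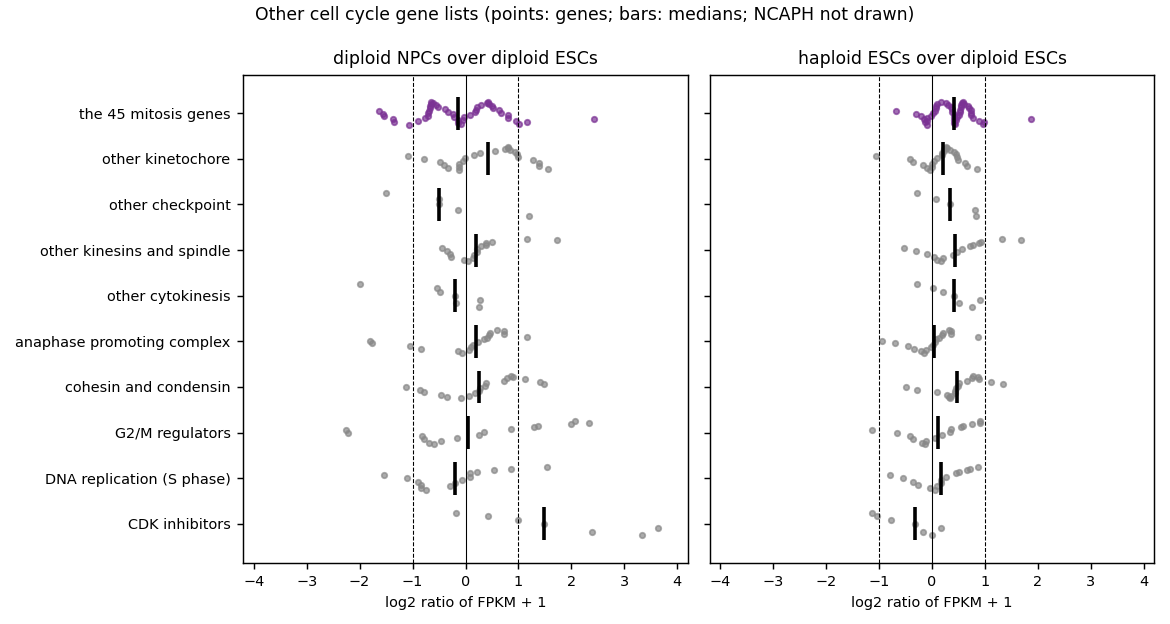
Log2 ratio of FPKM + 1 for the 45 mitosis genes and for the genes of 9 other cell cycle lists (points), with the median of each list as a bar, in diploid NPCs over diploid ESCs (left) and haploid ESCs over diploid ESCs (right). CDK inhibitors have a median of 1.49 on the left and -0.33 on the right; NCAPH, listed at 0 in 2 libraries, is counted in its median but not drawn.

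Strand was not stated, and 11 of the 45 genes overlap another protein-coding gene in the T2T-MMU8v2.0 gene table, which is not the assembly the reads were mapped to. KIF20A is among them, its neighbour CDC23 standing at 7.73 FPKM in NPCs, 22.2 FPKM in haploid ESCs and 17.1 FPKM in diploid ESCs. CCNA2 is another, its neighbour EXOSC9 standing at 45.7, 32.2 and 22.7 FPKM in NPCs, haploid ESCs and diploid ESCs. Without the 11 genes, a setting added after seeing the data, the median log2 ratios were -0.11 in NPCs and 0.37 in haploid ESCs, each over diploid ESCs.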

How the data were processed

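Per the labels' protocols, total RNA was sequenced on a BGISEQ-500 instrument, and STAR 2.4 mapped reads to UCSC's Rhesus8 assembly, allowing 2 mismatches. FeatureCounts, with defaults, counted reads per gene, and only genes whose reads summed to over 10 were kept; the submitters' processing notes name both tools. The authors deposited FPKM to 2 decimals. No source used here says how FPKM was computed.

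Each column name starts with the description of the sample it was given to. There was 1 more sample column, which matched no sample and was left out, so the planned haploid NPC comparisons were not run. FPKM were used without rescaling. With 1 library per group, differences were counted at 2-fold on FPKM plus 1, and no test was run. Relative depth is the most frequent ratio between genes listed at 0.15 to 0.6 FPKM in both of a pair of libraries.

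The members and lists were chosen with earlier results of these data known. Members were matched by symbol, and 10 other listed genes by gene ID. Chromosomes, spans and overlaps come from the RefSeq table of T2T-MMU8v2.0, which held 19875 of the gene IDs. Genes named are all members and, in each other list, the highest and lowest ratio over diploid ESCs. FOXM1, CDC25A, KIF4A, SMC1A, STAG2, NCAPD3, NCAPG, CDKN1A, CDKN2D, paralogues, markers and overlapping neighbours given singly were chosen after their values were seen.

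Python 3.11.15, numpy 2.4.6, pandas 2.3.3 and matplotlib 3.10.9 were used, and the scripts were tested on simulated data. Settings varied one at a time were the pseudocount (0.1), the filter (none, or a mean of 5 FPKM), the scaling (to a sum of 1000000, TPM; unweighted trimmed mean factors, TMM; centring on the median gene), genes with a symbol alone, the threshold (1.5-fold, 4-fold) and the NPC baseline (haploid ESCs).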

Additional observations from a re-analysis of the deposited data

How the results depend on the processing

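No paired analysis was possible because each group held 1 library. The 45 genes counted as lower in NPCs than in diploid ESCs were 16 at 1.5-fold, 0 at 4-fold and 12 against haploid ESCs, in place of 6; those counted as higher were 8 at 1.5-fold and 1, SPC24, at 4-fold, in place of 3. In haploid over diploid ESCs, those higher were 12 at 1.5-fold, 0 at 4-fold, 5 with TPM scaling and 2 with a pseudocount of 0.1, in place of 1, and 1 was lower at 1.5-fold in place of 0. The shares of all genes under these thresholds and scalings were not computed, so these counts cannot be set beside genes in general. The median log2 ratio in NPCs over diploid ESCs moved by more than 0.1 with TMM scaling, to -0.29, where that of all genes was -0.12, and against haploid ESCs, to -0.55. In haploid over diploid ESCs it moved with TPM scaling alone, to 0.63. Medians within 0.1 and counts within 1.5 times were taken as alike. The filters and the restriction to genes with a symbol changed none of these counts or medians. Among single genes, TOP2A stood short of 2-fold in NPCs over diploid ESCs with TPM, TMM and centring, at 0.93, 0.85 and 0.9986 (log2), and at 0.58 against haploid ESCs, and TTK passed it with TPM and TMM, at -1.01 and -1.04. KNTC1, KIF11, PRC1 and ANLN passed 2-fold in haploid over diploid ESCs with TPM, and KNTC1 also with a pseudocount of 0.1. No gene past 2-fold changed direction under these settings. The medians of the chromosome structure group in NPCs and of the anaphase group in haploid ESCs, both over diploid ESCs, changed sign, to -0.07 with TMM and 0.05 with TPM. So did that of the passenger complex in NPCs, to -0.03 with TPM, -0.10 with TMM and -0.22 against haploid ESCs. Against haploid ESCs the chromosome structure median in NPCs was -0.46. The NPC library, the shallowest, limits genes near 0 the most, and CENPI was the lowest of the 45 there.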

Other observations

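X-linked genes of mitosis were high in the haploid ESC library. The lists described above hold 4 X-linked genes by the T2T-MMU8v2.0 gene table: CENPI, KIF4A and the cohesin genes SMC1A and STAG2. SMC1A stood at 80.3 FPKM in haploid ESCs and 31.3 FPKM in diploid ESCs. KIF4A, a chromosome-bound kinesin, stood at 36 FPKM in haploid ESCs and 13.7 FPKM in diploid ESCs, and STAG2 at 77.9 FPKM in haploid ESCs and 41.4 FPKM in diploid ESCs. With CENPI, 3 of the 4 were at least 2-fold higher in haploid ESCs, where 28.4% of 529 X-linked genes and 6.19% of autosomal genes were. What X linkage adds to these ratios was not tested.

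The topoisomerase II genes were highest in different libraries, with TOP2A above TOP2B in each. TOP2B, the form that non-dividing cells also use and named after its values were seen, stood at 25.6 FPKM in NPCs, 74.4 FPKM in haploid ESCs and 32.4 FPKM in diploid ESCs, whereas TOP2A was highest in NPCs. The other cyclins of the A and B classes were low: CCNA1 stood at 0.67 FPKM in NPCs, 0.12 FPKM in haploid ESCs and 1.39 FPKM in diploid ESCs, and CCNB3 at 0.06, 0.55 and 0.26 FPKM in NPCs, haploid ESCs and diploid ESCs.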
